A study of Homo sapiens with 24 samples.

Results

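The miR-17-92 cluster is a group of 6 miRNA hairpins that are cut from 1 primary transcript, and its mature arms were followed across OV90 ovarian cancer cells in which RELA or RELB had been silenced. The arms were taken by name from a table of 2656 mature miRNAs, and all 10 that were sought were found in it: hsa-miR-17-5p, hsa-miR-17-3p, hsa-miR-18a-5p, hsa-miR-18a-3p, hsa-miR-19a-3p, hsa-miR-20a-5p, hsa-miR-20a-3p, hsa-miR-19b-3p, hsa-miR-92a-1-5p and hsa-miR-92a-3p. All 10 passed the filter on low counts and are among the 905 miRNAs tested. OV90 is an established epithelial ovarian cancer line. Its cells carried 1 of 3 shRNA constructs that doxycycline switches on, a negative control (shNeg), one that silences RELA (shRELA) and one that silences RELB (shRELB), and every group received 1 µg/ml doxycycline for 72 h. The sample labels give the shNeg samples as wild type, and they were taken as the negative control from their titles and the study's methods. Each shRNA line was grown attached in serum medium (adherent) or in ultra-low attachment vessels in a defined medium with growth factors (spheroid), a culture that favors tumor-initiating cells (TICs). The cultures therefore differ in both attachment and medium. That gives 6 groups of 4 libraries, 24 in all, and the comparisons ask how the cluster responds to spheroid culture, to loss of RELA, which acts in the classical NF-κB pathway, and to loss of RELB, which acts in the alternative pathway.

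A miRNA cluster of this kind is transcribed as 1 long RNA, from which the microprocessor cuts each hairpin and Dicer then releases a duplex of 2 arms. Usually 1 arm, the guide, is loaded into an Argonaute protein and kept, while the other, the passenger, is mostly degraded, so that arms of 1 transcript can reach very different levels. The miR-17-92 cluster is a classical oncogenic miRNA cluster: MYC and E2F factors activate its host gene MIR17HG, miR-17-5p and miR-20a-5p repress cell cycle inhibitors such as CDKN1A, and the cluster limits the pro-apoptotic protein BIM.

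The 10 mature sequences are shown because they decide both which targets the arms share and which arms the counting could confuse. They were taken from RefSeq on GRCh38.p14, and capitals mark the seed, bases 2 to 8, which pairs with target mRNAs.
hsa-miR-17-5p: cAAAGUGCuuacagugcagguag
hsa-miR-20a-5p: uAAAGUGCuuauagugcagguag
hsa-miR-18a-5p: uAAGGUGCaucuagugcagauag
hsa-miR-19a-3p: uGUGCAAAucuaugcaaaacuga
hsa-miR-19b-3p: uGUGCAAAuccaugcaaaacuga
hsa-miR-92a-3p: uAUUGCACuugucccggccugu
hsa-miR-17-3p: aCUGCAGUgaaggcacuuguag
hsa-miR-18a-3p: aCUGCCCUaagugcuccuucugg
hsa-miR-20a-3p: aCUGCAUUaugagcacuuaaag
hsa-miR-92a-1-5p: aGGUUGGGaucgguugcaaugcu

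The guides fall into 4 seed groups. hsa-miR-17-5p and hsa-miR-20a-5p share AAAGUGC, hsa-miR-19a-3p and hsa-miR-19b-3p share GUGCAAA, hsa-miR-18a-5p has AAGGUGC and hsa-miR-92a-3p has AUUGCAC. Counted from the 5′ end, hsa-miR-17-5p differs from hsa-miR-20a-5p by C1U and C12U, and hsa-miR-19a-3p differs from hsa-miR-19b-3p by U11C. The first arm is at chr13:91350618-91350640 and the last at chr13:91351361-91351382, both on the plus strand. The 6 hairpins span 787 bases within MIR17HG, a non-coding gene of 16 annotated GENCODE transcripts. They lie in an exon in 3 of the 11 transcripts that span them and outside exons in 8. hsa-miR-19b-3p and hsa-miR-92a-3p are also made by the hairpins MIR19B2 and MIR92A2 of the miR-106a-363 cluster on the minus strand of chromosome X, so their counts cannot be assigned to 1 locus.

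The table holds estimated read counts that the authors did not scale for library size. Library totals were 3797175 to 8283549 in adherent and 959141 to 3580931 in spheroid culture, so spheroid values are the less precise, and where a library has 0 counts, 3 counts remain possible, equal to at most 2.29 CPM (the count relative to the library total, on a scale common to all libraries). Levels below are CPM scaled by TMM, a factor that corrects for libraries dominated by a few miRNAs. Spheroid shNeg libraries had totals of 959141 to 1580252 and TMM factors of 1.12 to 1.37. Spheroid knockdown libraries had totals of 1861232 to 3580931 and factors of 0.915 to 1.09, without overlap. The part of depth and scaling in the comparisons with spheroid shNeg was not tested. The miR-200 family, a set of epithelial miRNAs, was detected in both cultures, with a summed level of 1679 to 15884 CPM. Most of that sum was hsa-miR-200c-3p, with group means of 2035 to 11731 CPM. Group means were at most 10.5 CPM for hsa-miR-200a-3p and 1.51 CPM for hsa-miR-429, which is near the floor. A list of blood cell miRNAs summed to at most 18.3 CPM in any library, with 2 of its 5 miRNAs at 0 in every spheroid library. miR-126-3p, known as an endothelial miRNA, was at 2093 to 8827 CPM in adherent and 538 to 1667 CPM in spheroid libraries. A list of 4 mesenchymal miRNAs, all detected, summed to 67.8 to 365 CPM (median 330) in adherent and 69.8 to 309 CPM (median 125) in spheroid libraries. The part of either in the results was not tested. Spheroid shNeg replicate 1 had 432 miRNAs with a count, and the remaining spheroid shNeg libraries had 813 to 885. It is given with and without where it matters. Spheroid shRELA replicate 1 also stood apart from its group for several arms. The libraries hold no mRNA reads, so the silencing of RELA and RELB was not checked here. The labels do not say whether replicates were separate cultures, so p-values measure the spread between these libraries, which may be technical. In bulk RNA, fewer cells with a miRNA and less of it per cell cannot be told apart.

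The arms of the cluster differed in level by more than 3 orders of magnitude within the same libraries. In adherent shNeg cells, hsa-miR-92a-3p was the most abundant at 51249 ± 3867 CPM (mean ± SD, n = 4), followed by hsa-miR-20a-5p at 7531 ± 658 and hsa-miR-17-5p at 934 ± 248. Next came hsa-miR-17-3p at 233 ± 35.0, hsa-miR-19b-3p at 219 ± 26.6 and hsa-miR-18a-3p at 184 ± 6.90. hsa-miR-18a-5p was at 87.3 ± 18.1, hsa-miR-92a-1-5p at 66.6 ± 4.92, hsa-miR-19a-3p at 15.6 ± 6.39 and hsa-miR-20a-3p at 14.5 ± 3.76 CPM. hsa-miR-17-3p and hsa-miR-19b-3p did not differ beyond their spread, nor did hsa-miR-19a-3p and hsa-miR-20a-3p. The arms are 22 or 23 bases long, and how well the kit captures each of them is not known. Among the hairpins with both arms followed here, the arm above its partner was, for 3, the one usually held to be the guide. The hairpin of miR-18a was the exception, with more hsa-miR-18a-3p than hsa-miR-18a-5p reads in every adherent shNeg library.

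hsa-miR-92a-3p made up 84.6% ± 2.20 (SD, n = 4) of the reads of the 10 arms in adherent shNeg cells and 96.6% ± 1.43 in spheroid shNeg cells. Any reads from MIR92A2 on chromosome X are counted in it. In the adherent shNeg libraries the share was 84.3%, 81.8%, 85.2% and 87.1%, and in the spheroid shNeg libraries it was 98.7%, 96.3%, 95.9% and 95.5%. Every spheroid shNeg library was above every adherent one. The share was 92.9% ± 1.16 with shRELA and 93.9% ± 1.55 with shRELB in spheroids, and 83.4% ± 4.76 and 88.6% ± 0.839 in adherent culture. The other 9 arms together stood at 9284 ± 948 CPM in adherent and 1794 ± 853 CPM in spheroid shNeg cells, so a sum over the cluster mostly reads hsa-miR-92a-3p.

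**Figure D1:**
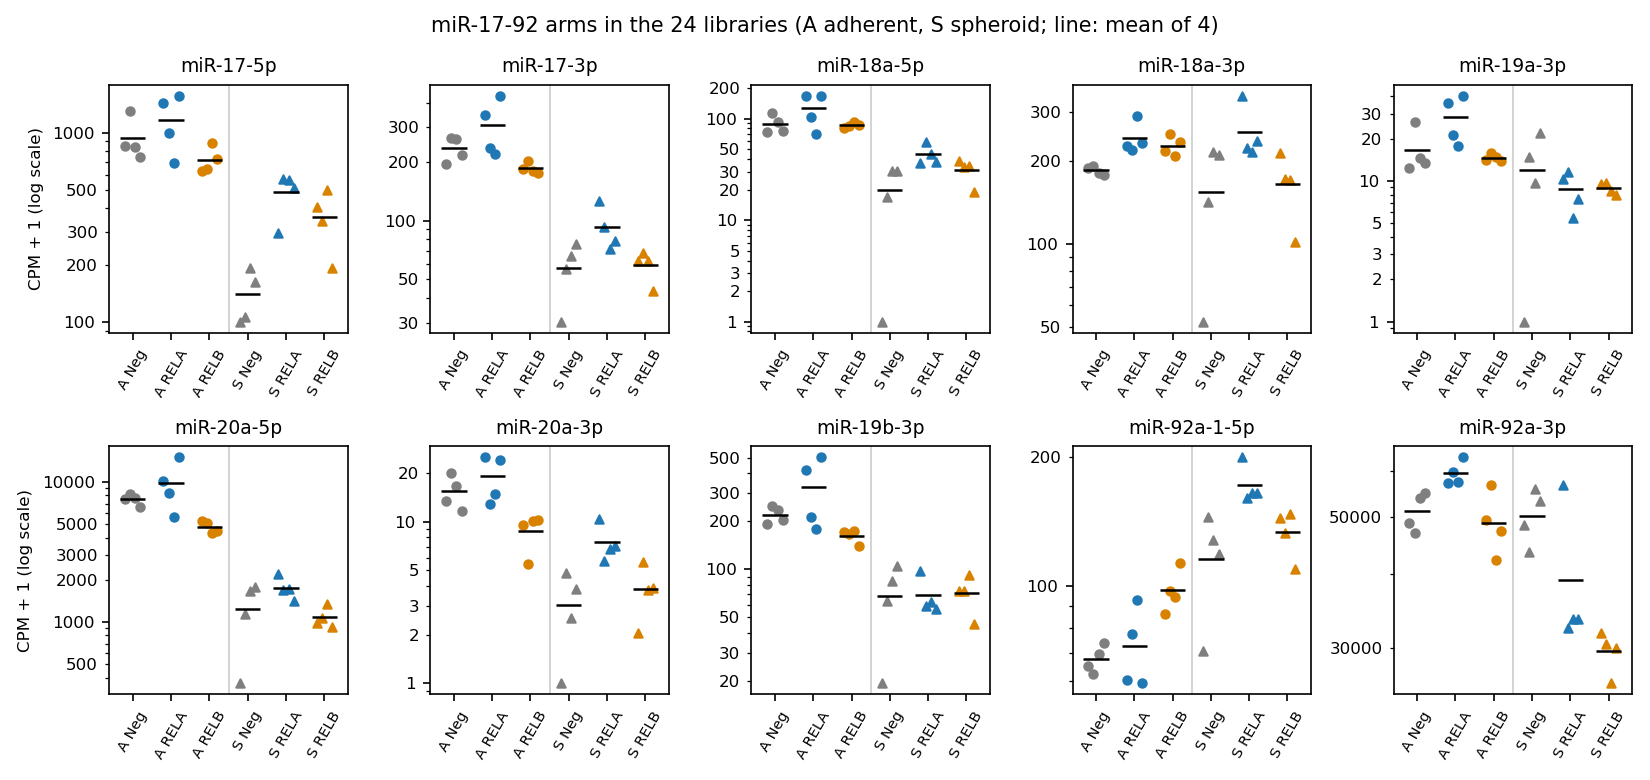
TMM-scaled level (CPM + 1, log axis) of each of the 10 arms in the 24 libraries, with 1 point per library, circles for adherent and triangles for spheroid culture, and a line at the mean of 4. hsa-miR-17-5p and hsa-miR-20a-5p lie lower in every spheroid library than in any adherent one, hsa-miR-92a-1-5p lies mostly higher, and spheroid shNeg replicate 1 is at 0 for 3 arms.

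Spheroid culture lowered most arms of the cluster in shNeg cells. 6 of the 10 arms fell by over 2-fold at an FDR below 0.01 and none rose, where 42.2% of all 905 miRNAs were called in either direction. hsa-miR-17-5p fell 6.63-fold, hsa-miR-20a-5p 6.12-fold and hsa-miR-20a-3p 7.10-fold, while hsa-miR-92a-3p and hsa-miR-18a-3p did not pass the test. The median log2 fold change of the 10 arms was -1.87, beside -0.26 for all miRNAs tested. At an FDR below 0.05 and any fold, 7 arms passed, beside 59.4% of all miRNAs.

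hsa-miR-17-5p, a guide that represses cell cycle inhibitors, was at 851, 1298, 843 and 742 CPM in the adherent shNeg libraries and at 99.8, 106, 193 and 162 CPM in the spheroid ones. The groups lay far apart, and the log2 fold change was -2.73 ± 0.29 (SE, edgeR quasi-likelihood FDR 8.04e-10). hsa-miR-20a-5p, of the same seed group, went from 7542, 8253, 7667 and 6660 CPM to 364, 1139, 1650 and 1768 CPM, with a log2 fold change of -2.61 ± 0.30 (edgeR FDR 3.92e-09). Here too every spheroid library was below every adherent one, replicate 1 by the most. hsa-miR-19b-3p, a guide of the second seed group, was at 192, 249, 234 and 203 CPM in adherent and 18.3, 62.6, 83.6 and 104 CPM in spheroid culture, and fell 3.25-fold (edgeR FDR 5.10e-05). Its groups did not overlap. hsa-miR-19a-3p, its seed partner, was at 11.3, 25.1, 13.6 and 12.4 CPM in adherent and 0, 13.7, 8.72 and 21.1 CPM in spheroid culture. Those groups overlapped, and the log2 fold change of -0.51 ± 0.46 did not pass (edgeR FDR 0.348). Without spheroid shNeg replicate 1, the library at 0, it was -0.11. Without spheroid shNeg replicate 4 it was -1.21 and passed an FDR of 0.05, so its size rests on single libraries.

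hsa-miR-18a-5p, a guide of its own seed within the cluster, went from 73.0, 111, 90.9 and 73.9 CPM to 0, 16.04, 29.2 and 29.5 CPM, 4.57-fold lower (edgeR FDR 3.88e-05). Its partner hsa-miR-18a-3p was at 188, 191, 179 and 177 CPM in adherent and 51.3, 141, 214 and 209 CPM in spheroid shNeg cells. The spheroid libraries lay on both sides of the adherent ones, and the log2 fold change was -0.25 ± 0.27 (edgeR FDR 0.427). It was 0.04 without spheroid shNeg replicate 1 and 0.21 with library totals in place of TMM, so no direction can be given. hsa-miR-92a-3p was at 48909, 47064, 53979 and 55046 CPM in adherent and 48426, 43586, 55803 and 53256 CPM in spheroid culture. The ranges covered each other and the log2 fold change was -0.03 ± 0.16 (edgeR FDR 0.889), but 0.09 with median-ratio size factors and 0.41 with library totals. Its partner hsa-miR-92a-1-5p was at 64.2, 61.3, 68.5 and 72.5 CPM in adherent and 69.7, 144, 127 and 118 CPM in spheroid culture. It was 1.72-fold higher (edgeR FDR 0.00226), with replicate 1 the only spheroid library within the adherent range. It missed an FDR of 0.05 without adherent shNeg replicate 2 (log2 fold change 0.55), without spheroid shNeg replicate 2 (0.47) and with no filter on low counts (0.54).

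The called arms did not depend on spheroid shNeg replicate 1: without it, 6 arms were again called, with log2 fold changes of -2.59 for hsa-miR-17-5p and -2.31 for hsa-miR-20a-5p. hsa-miR-20a-3p had at most 5 counts in any spheroid shNeg library, so its fold change rests on few reads. When the compared groups alone were fitted, hsa-miR-18a-5p (edgeR FDR 0.0441) and hsa-miR-19b-3p (edgeR FDR 0.0184) were not called.

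The same direction was seen in cells with either knockdown. With shRELA, spheroid culture changed 8 arms by the call, 7 lower and 1 higher, beside 32.6% of all miRNAs, and 9 at an FDR below 0.05, beside 49.3%. hsa-miR-20a-5p fell 5.58-fold, hsa-miR-19b-3p 4.83-fold, hsa-miR-19a-3p 3.61-fold, hsa-miR-17-3p 3.39-fold and hsa-miR-17-5p 2.42-fold. With limma, hsa-miR-19a-3p (limma FDR 0.0155) and hsa-miR-18a-5p (limma FDR 0.0561) were not called. The call of hsa-miR-20a-3p was lost without adherent shRELA replicate 4 (edgeR FDR 0.0116) and without spheroid shRELA replicate 2 (edgeR FDR 0.0123). hsa-miR-92a-1-5p was the arm that rose, 2.39-fold, and hsa-miR-18a-3p had a log2 fold change of 0.07 ± 0.27 (edgeR FDR 0.853). hsa-miR-92a-3p, flat in shNeg cells, fell 1.52-fold (edgeR FDR 0.00204), from 57090, 59807, 57310 and 63238 CPM to 56687, 32376, 33543 and 33559 CPM. The first spheroid shRELA library was near the adherent level and the other 3 were well below it.

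With shRELB, spheroid culture changed 5 arms by the call, all lower, beside 25% of all miRNAs, and 7 at an FDR below 0.05, beside 43.3%. hsa-miR-20a-5p fell 4.43-fold, from 5258, 5123, 4281 and 4453 CPM to 981, 1062, 1345 and 925 CPM, with a wide gap between the groups. hsa-miR-17-3p fell 3.18-fold, hsa-miR-18a-5p 2.85-fold, hsa-miR-19b-3p 2.32-fold and hsa-miR-17-5p 2.01-fold. The last was at the limit of the call, and fell short of it without adherent shRELB replicate 3 (log2 fold change -0.90), without spheroid shRELB replicate 4 (-0.88), with library totals (-0.96) and when the compared groups alone were fitted (-0.90). The call of hsa-miR-18a-5p was lost with limma (limma FDR 0.0528). hsa-miR-92a-3p fell 1.66-fold (edgeR FDR 3.77e-04), from 49420, 56823, 42249 and 47442 CPM to 31751, 30419, 26119 and 30004 CPM, and these groups did not overlap. hsa-miR-19a-3p (log2 fold change -0.80 ± 0.45), hsa-miR-18a-3p (-0.47 ± 0.27) and hsa-miR-92a-1-5p (0.45 ± 0.21) did not pass in the edgeR test with all libraries, and did at an FDR below 0.05 once spheroid shNeg replicate 1, a library of neither group, was left out.

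**Figure D2:**
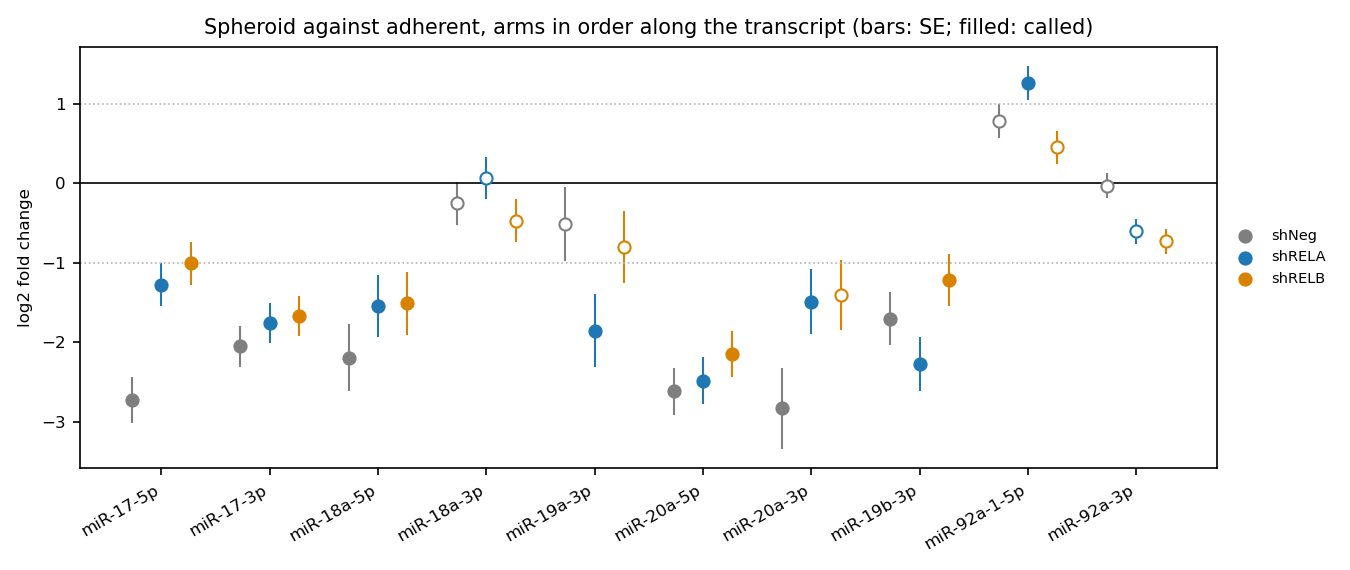
Log2 fold change of spheroid against adherent culture for the 10 arms in their order along the transcript, with shNeg, shRELA and shRELB in gray, blue and orange, bars for the SE and filled points for calls (FDR below 0.01 and over 2-fold, dotted lines). hsa-miR-17-5p, hsa-miR-17-3p, hsa-miR-18a-5p, hsa-miR-20a-5p and hsa-miR-19b-3p were called lower with all 3 shRNAs, hsa-miR-17-5p with shRELB at the limit of the call (-1.01), and both arms of miR-92a and hsa-miR-18a-3p lie near or above 0 with shNeg.

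The arms also differ in base composition, and base composition went with the change in spheroids across all miRNAs. Over the 795 tested miRNAs with a sequence, the Spearman correlation of GC content with the log2 fold change in shNeg cells was 0.56, with shRELA 0.46 and with shRELB 0.42. These are descriptions across miRNAs that share the same libraries, and the 10 arms are among the 795. In shNeg cells the median log2 fold change was -1.70 for the 181 miRNAs under 45% GC, -0.74 for the 277 from 45% to 55% and 1.32 for the 337 at 55% or more. The arms that fell most were at 36.4% (hsa-miR-20a-3p), 47.8% (hsa-miR-17-5p) and 39.1% GC (hsa-miR-20a-5p). Those near or above 0 were at 54.5% (hsa-miR-92a-3p), 56.5% (hsa-miR-18a-3p) and 52.2% (hsa-miR-92a-1-5p). hsa-miR-19a-3p, at 34.8%, is the lowest in GC and did not follow this order in shNeg cells, with a log2 fold change of -0.51. Below the medians of their GC ranges were hsa-miR-20a-3p, hsa-miR-20a-5p, hsa-miR-18a-5p (-2.19), hsa-miR-17-5p (-2.73), hsa-miR-17-3p (-2.05) and hsa-miR-18a-3p (-0.25). Above them were hsa-miR-19a-3p, hsa-miR-92a-3p (-0.03) and hsa-miR-92a-1-5p (0.78), and hsa-miR-19b-3p was at its median (-1.70). Over the 10 arms the correlation was 0.56 with shNeg. For knockdown in spheroids, the correlation over the 795 miRNAs was -0.35 with RELA and -0.24 with RELB. In adherent cells it was 0.03 with RELA and 0.33 with RELB knockdown. For the difference of the response between the cultures it was -0.35 for RELA and -0.43 for RELB. With RELA knockdown in spheroids, the medians of the GC ranges were 0.75, 0.40 and -0.41, from low to high GC. The part of base composition in any of these fold changes was not tested.

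**Figure D3:**
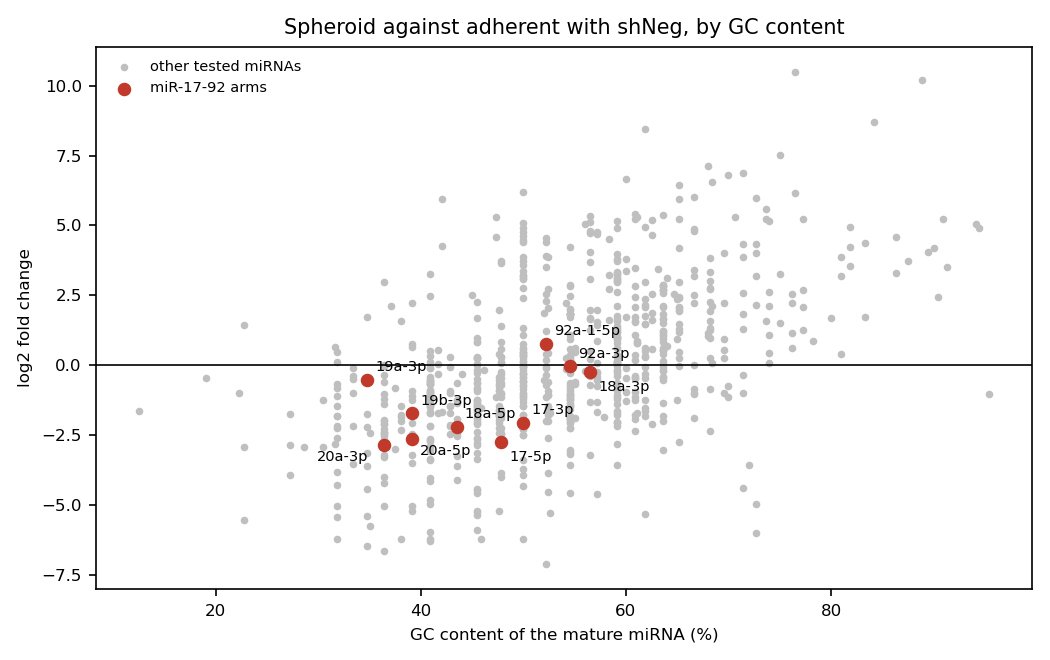
GC content of the mature miRNA (percent) against the log2 fold change of spheroid against adherent shNeg cells, with the arms of the cluster in red and the other tested miRNAs that have a sequence in gray. With gray and red points together, the 337 miRNAs at 55% GC or more had a median of 1.32 and the 181 under 45% a median of -1.70. Of the red points, hsa-miR-19a-3p and both arms of miR-92a lie above the median of their GC range. hsa-miR-19b-3p lies at it, and the other arms lie below.

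In spheroids, RELA knockdown raised hsa-miR-17-5p 3.44-fold, and it was the only arm called, beside 15.1% of all miRNAs. Its level went from 99.8, 106, 193 and 162 CPM with shNeg to 294, 570, 564 and 507 CPM with shRELA. The groups did not overlap, and the log2 fold change was 1.78 ± 0.28 (edgeR FDR 8.87e-06). It was 1.65 without spheroid shNeg replicate 1 and 1.93 without spheroid shRELA replicate 1, and remained called in both. At an FDR below 0.05, 6 arms passed, all higher, beside 27.4% of all miRNAs: hsa-miR-17-5p, hsa-miR-17-3p, hsa-miR-18a-5p, hsa-miR-18a-3p, hsa-miR-20a-3p and hsa-miR-92a-1-5p. That count was 2 without spheroid shNeg replicate 1, 3 without spheroid shRELA replicate 1, 3 with median-ratio size factors, 2 with library totals and 1 when the compared groups alone were fitted. It was 2 to 3 when spheroid shNeg replicate 2 or spheroid shRELA replicate 2 or 3 was left out. hsa-miR-17-5p was the only one of the 6 that passed an FDR of 0.05 at every setting tried.

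hsa-miR-20a-5p, which shares the seed of hsa-miR-17-5p, was at 364, 1139, 1650 and 1768 CPM with shNeg and at 2212, 1686, 1718 and 1407 CPM with shRELA in spheroids. The groups overlapped and the log2 fold change of 0.51 ± 0.28 did not pass (edgeR FDR 0.180). It was 0.21 without spheroid shNeg replicate 1. hsa-miR-92a-3p was at 48426, 43586, 55803 and 53256 CPM with shNeg and at 56687, 32376, 33543 and 33559 CPM with shRELA. Here 3 of 4 shRELA libraries were below every shNeg library, and the log2 fold change was -0.36 ± 0.16 (edgeR FDR 0.0833). Without spheroid shRELA replicate 1 it was -0.63 and passed an FDR of 0.05, as it did with all libraries under median-ratio size factors (-0.53), library totals (-0.77), DESeq2 (-0.53) and limma (-0.40).

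RELB knockdown in spheroids raised hsa-miR-17-5p 2.54-fold and lowered hsa-miR-92a-3p 1.70-fold. The first was called, alone among the arms, beside 13.4% of all miRNAs, and both passed an FDR of 0.05, beside 26.4%. hsa-miR-17-5p was at 404, 342, 498 and 191 CPM with shRELB, with replicate 4 at the level of the highest shNeg library (193 CPM), and its log2 fold change was 1.35 ± 0.28 (edgeR FDR 3.46e-04). It was not called when the compared groups alone were fitted. hsa-miR-92a-3p was at 31751, 30419, 26119 and 30004 CPM with shRELB, below every shNeg library, and its log2 fold change was -0.77 ± 0.16 (edgeR FDR 3.68e-04). hsa-miR-20a-5p was at 981, 1062, 1345 and 925 CPM, within a shNeg range that replicate 1 extends down to 364 CPM. Its log2 fold change was -0.19 ± 0.28 (edgeR FDR 0.644). Without spheroid shNeg replicate 1 the log2 fold change was -0.49 for hsa-miR-20a-5p and 1.21 for hsa-miR-17-5p. The median over the 10 arms was 0.07, beside 0.16 for all miRNAs tested, and with RELA knockdown it was 0.63 beside 0.09. The 4 shNeg libraries serve as the reference of both knockdowns.

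In adherent cells neither knockdown changed an arm at either threshold. With RELA knockdown 3.76% of all miRNAs were called and 7.85% passed an FDR of 0.05, 164 of them had an unadjusted p under 0.05, and the lowest FDR of an arm was 0.286. The 10 log2 fold changes ran from 0.10 to 0.84 with a median of 0.39, beside 0.09 for all miRNAs. The shRELA libraries were split: hsa-miR-17-5p was at 1437, 996, 687 and 1562 CPM, hsa-miR-20a-5p at 10208, 8358, 5637 and 14999 CPM, and hsa-miR-19b-3p at 421, 214, 177 and 504 CPM. Replicates 1 and 4 were high and replicate 3 low for each of these, so the spread within shRELA covered the shNeg range. Replicates 1 and 4 also had the lowest TMM factors of the group, 0.812 and 0.730, against 0.923 and 0.994 in the other 2, and the part of scaling in their levels was not tested. Without replicate 4, the log2 fold change of hsa-miR-20a-5p went from 0.38 to 0.11, and that of hsa-miR-17-5p from 0.33 to 0.17.

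With RELB knockdown in adherent cells 7.07% of all miRNAs were called and 12.7% passed an FDR of 0.05, and 224 had an unadjusted p under 0.05. The arms' log2 fold changes ran from -0.87 to 0.54 with a median of -0.26, beside 0.04 for all miRNAs, and the lowest FDR was 0.0907. hsa-miR-20a-5p was at 5258, 5123, 4281 and 4453 CPM, below every shNeg library, with a log2 fold change of -0.66 ± 0.28 (edgeR FDR 0.125). hsa-miR-20a-3p was at 8.53, 4.44, 9.08 and 9.26 CPM, also below every shNeg library, and hsa-miR-92a-1-5p at 84.8, 96.4, 93.5 and 112 CPM, above every one. These 3 arms passed an FDR of 0.05 in the edgeR fit without spheroid shNeg replicate 1, a library of the other culture that shares the estimate of spread, and 6 arms passed when the compared groups alone were fitted.

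**Figure D4:**
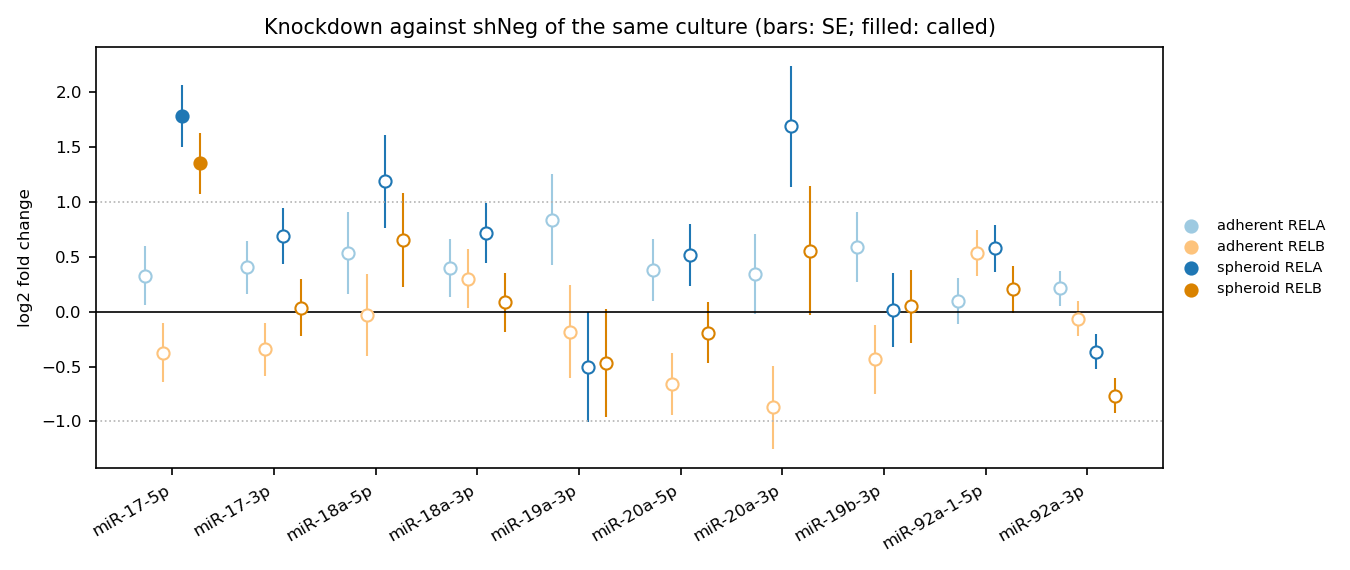
Log2 fold change of RELA and RELB knockdown against shNeg of the same culture for the 10 arms, pale points for adherent and dark points for spheroid culture, with bars for the SE, filled points for calls and dotted lines at 2-fold. The calls are hsa-miR-17-5p in spheroids, at 1.78 with RELA and 1.35 with RELB knockdown.

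The response of hsa-miR-17-5p to each knockdown differed between the cultures. For RELA, the log2 fold change in spheroids exceeded that in adherent cells by 1.45 ± 0.38 (edgeR FDR 0.00807), the only arm called, beside 7.62% of all miRNAs, and the only one at an FDR below 0.05, beside 14%. For RELB the difference was 1.72 ± 0.38 (edgeR FDR 0.00180), again the only arm called, beside 8.51%. hsa-miR-92a-3p also passed an FDR of 0.05 for RELB, with a difference of -0.70 ± 0.22 (edgeR FDR 0.0266), beside 16.5% of all miRNAs. It missed that FDR, at -0.67 to -0.56, when adherent shNeg replicate 1 or 2, adherent shRELB replicate 2, spheroid shNeg replicate 3, spheroid shNeg replicate 4, or any of spheroid shRELB replicates 2, 3 and 4 was left out, and with no filter (-0.64). For hsa-miR-20a-5p the differences were 0.13 ± 0.40 and 0.46 ± 0.40, and neither passed. The RELA call of hsa-miR-17-5p was lost with median-ratio size factors, library totals, DESeq2 and limma, and its RELB call with library totals. The RELA call was also lost without adherent shNeg replicate 1 or 3, adherent shRELA replicate 2 or 3, spheroid shNeg replicate 2, or spheroid shRELA replicate 2 or 3. In each of these the difference kept an FDR below 0.05, and with 1 library left out it was between 1.26 and 1.73 for RELA and between 1.53 and 2.03 for RELB. Without spheroid shNeg replicate 1, 2 arms were called for RELA.

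The knockdowns were also set against each other. In adherent cells hsa-miR-20a-5p was 2.05-fold higher with shRELA than with shRELB (edgeR FDR 0.00670), the 1 arm called, beside 10.9% of all miRNAs. 4 arms passed an FDR of 0.05, beside 24.3%: hsa-miR-20a-5p, hsa-miR-20a-3p, hsa-miR-19b-3p and hsa-miR-17-3p, with log2 differences of 1.04 ± 0.28, 1.21 ± 0.38, 1.02 ± 0.32 and 0.75 ± 0.24. Without adherent shRELA replicate 4, none of the 10 arms passed in the edgeR test, and the log2 difference of hsa-miR-20a-5p was 0.77. Its call was also lost without adherent shRELA replicate 1 or any 1 of the 4 adherent shRELB libraries, with log2 differences of at least 0.77, and with library totals (0.76), no filter (0.97), limma (0.95) and a fit of the compared groups alone (0.97). With library totals none of the 10 arms passed an FDR of 0.05. The count at an FDR of 0.05 was 1 without adherent shRELA replicate 1, 2 without adherent shRELB replicate 4 and 8 without spheroid shNeg replicate 1, so it rests on single libraries. In spheroids no arm was called or passed an FDR of 0.05, beside 6.63% and 16.1% of all miRNAs in the edgeR test (258 of all had an unadjusted p under 0.05). The lowest FDR of an arm was 0.0718, and without spheroid shNeg replicate 1 the count at an FDR of 0.05 was 5. It was 1 without spheroid shRELA replicate 3 or 4, and 2 without spheroid shRELB replicate 2.

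Ratios of arms within a library do not depend on how libraries are scaled, and they ask directly whether the arms moved together. For each hsa-miR-17-5p read there were 57.5, 36.2, 64.0 and 74.2 hsa-miR-92a-3p reads in the adherent shNeg libraries and 484, 409, 288 and 328 in the spheroid ones. With shRELA in spheroids there were 192, 56.8, 59.5 and 66.1, and with shRELB 78.6, 88.9, 52.4 and 157. All spheroid shNeg libraries lay above all others. The log2 ratio was 2.72 higher in spheroid than adherent shNeg cells, and in spheroids it fell by 2.19 with RELA and by 2.09 with RELB knockdown, each with a 2-sided exact permutation p of 0.0286. That is the smallest p that 4 against 4 libraries can give. Over the 63 ratios to hsa-miR-17-5p that were tested, 14 reached that smallest p by the exact permutation test. The lowest adjusted p was 0.129, so none passed an adjusted p of 0.05. A pass would have needed most of the 63 at the smallest p, so its absence says little.

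hsa-miR-20a-5p and hsa-miR-17-5p, which share a seed, kept a steadier ratio in adherent culture. There were 8.86, 6.36, 9.09 and 8.98 hsa-miR-20a-5p reads per hsa-miR-17-5p read in adherent shNeg and 3.64, 10.7, 8.52 and 10.9 in spheroid shNeg libraries. Only replicate 1 was outside the adherent range by much. With shRELA in spheroids the ratios were 7.51, 2.96, 3.05 and 2.77, and with shRELB 2.43, 3.11, 2.70 and 4.83. Of the 8 spheroid knockdown libraries, 6 lay below every other library, and shRELA replicate 1 and shRELB replicate 4 did not. With shRELB the log2 ratio was 1.08 lower in spheroid than in adherent libraries (2-sided exact permutation p = 0.0286, adjusted p 0.129).

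Arms that share a hairpin also shifted against each other. hsa-miR-92a-3p is also made by MIR92A2 on chromosome X, so the miR-92a ratio need not compare arms of 1 hairpin. The largest shift of the 28 compared was that of miR-18a between the cultures in shNeg cells, or, without spheroid shNeg replicate 1, that of miR-92a between the cultures with shRELA, by 1.93 on the log2 scale. There were 2.57, 1.71, 1.97 and 2.39 hsa-miR-18a-3p reads per hsa-miR-18a-5p read in the adherent shNeg libraries and 8.58, 7.26 and 7.02 in spheroid shNeg replicates 2, 3 and 4, while replicate 1 had 0 counts of hsa-miR-18a-5p. The groups did not overlap, and the log2 ratio of hsa-miR-18a-5p to hsa-miR-18a-3p fell by 1.83 in spheroids without replicate 1 and by 2.88 with it at 0.5 counts. It also fell by 1.03 with shRELB in spheroids, without overlap, and with shRELA the groups overlapped. With RELB knockdown in spheroids it was higher by 0.49 without replicate 1 and by 1.54 with it, without overlap either way. For miR-92a the groups were apart in more of the comparisons. hsa-miR-92a-3p outnumbered hsa-miR-92a-1-5p by 761, 766, 787 and 758 to 1 in adherent shNeg libraries and by 691, 303, 438 and 450 to 1 in spheroid shNeg libraries. In spheroids the figures were 286, 203, 205 and 205 to 1 with shRELA and 222, 231, 179 and 276 to 1 with shRELB. The miR-92a groups did not overlap in 6 of the 7 comparisons of culture or knockdown, adherent RELA knockdown being the exception. For miR-17, hsa-miR-17-5p outnumbered hsa-miR-17-3p by a median of 3.93 to 1 in adherent shNeg and 2.56 to 1 in spheroid shNeg libraries, and by 6.38 to 1 with shRELA and 5.83 to 1 with shRELB in spheroids. Of 28 tests of arm ratios, 11 reached the smallest exact permutation p of 0.0286, with an adjusted p of 0.0727, and none passed an adjusted p of 0.05. Here too a pass would have needed most of the 28 at the smallest p.

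**Figure D5:**
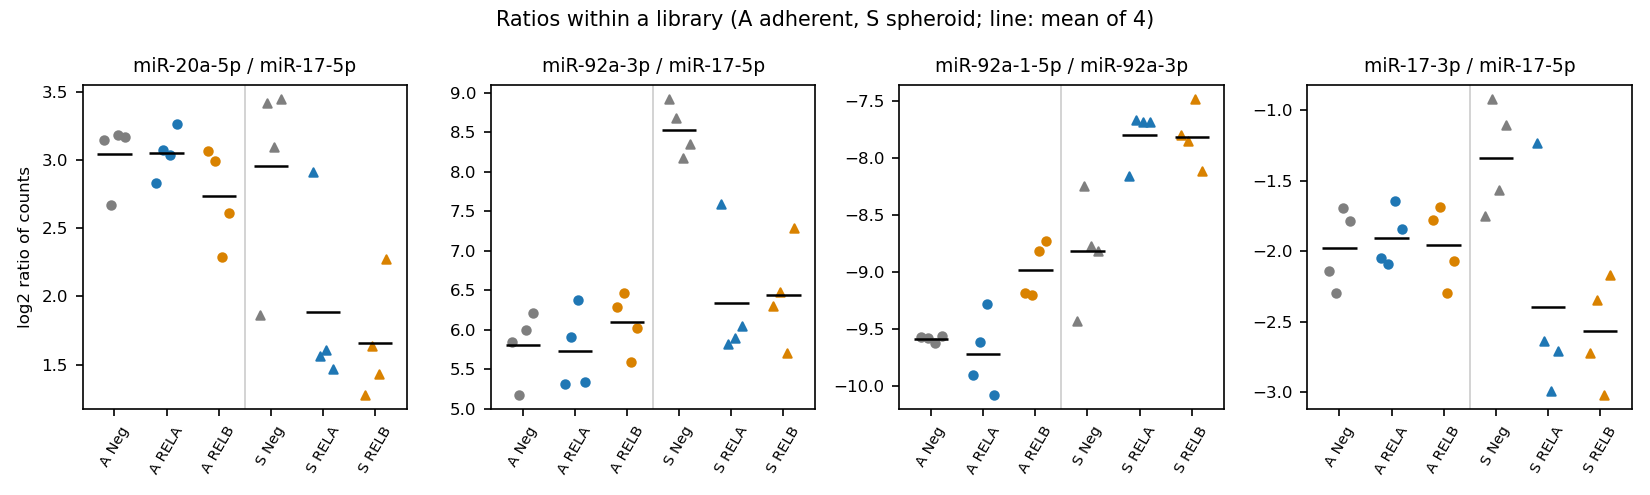
Log2 ratio of the counts of a pair of arms within each library, for 4 pairs, with circles for adherent and triangles for spheroid libraries and a line at the mean of 4. The ratio of hsa-miR-92a-3p to hsa-miR-17-5p is highest in the 4 spheroid shNeg libraries (288 to 484 reads per read, before the log), and spheroid shRELA replicate 1 lies nearer to shNeg than the other shRELA libraries for hsa-miR-20a-5p, hsa-miR-92a-3p and hsa-miR-17-3p against hsa-miR-17-5p.

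Between replicates of a group, the arms followed hsa-miR-17-5p to different degrees. After the group means were subtracted from log2(CPM + 1), Pearson's r with hsa-miR-17-5p over the 24 libraries was 0.57 for hsa-miR-18a-5p, with Spearman's rho of 0.73 (permutation p 9.0e-05 and 2.9e-04, adjusted p of r 8.1e-04). Without the 2 libraries farthest from the median of hsa-miR-17-5p, r was 0.54. It was 0.56 for hsa-miR-19b-3p (rho 0.56, permutation p 0.0180, adjusted 0.0741), 0.50 for hsa-miR-20a-5p (rho 0.47, permutation p 0.0247, adjusted 0.0741) and 0.47 for hsa-miR-17-3p (rho 0.50, permutation p 0.0600, adjusted 0.135). For the arms of miR-92a it was -0.34 (hsa-miR-92a-3p) and -0.07 (hsa-miR-92a-1-5p), with adjusted permutation p of 0.217 and 0.804. Thus 1 of 9 arms passed. In the 12 adherent libraries alone 2 passed, and in the 12 spheroid libraries alone none did.

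The remaining arms of the 6 hairpins were hsa-miR-19a-5p and hsa-miR-19b-1-5p. hsa-miR-19a-5p had at most 1 count in any library. hsa-miR-19b-1-5p averaged 16.4 ± 4.87 CPM in adherent shNeg and 0.989 ± 0.693 CPM in spheroid shNeg cells, where it had at most 2 counts in any library. With shRELA and shRELB it averaged 5.52 ± 3.23 and 2.68 ± 2.68 CPM in spheroids.

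The miR-106a-363 cluster on chromosome X and the miR-106b-25 cluster in an intron of MCM7 are paralogs that share seeds with miR-17-92. The miR-106b-25 cluster carries AAAGUGC and AUUGCAC, but neither AAGGUGC nor GUGCAAA. Of the 16 arms of both clusters, 11 passed the filter. In shNeg cells, spheroid culture lowered 4 of the 11 by the call and raised 1, beside 42.2% of all miRNAs called. It lowered 3 and raised 1 with shRELA, beside 32.6%, and lowered 3 with shRELB, beside 25%. These shares are close to those of all miRNAs. hsa-miR-106a-5p, which differs from hsa-miR-17-5p only by C1A, so that reads of the pair may be confused, averaged 127 ± 3.86 CPM in adherent and 7.21 ± 4.17 CPM in spheroid shNeg cells, and its log2 fold change was -4.09 ± 0.33. hsa-miR-106b-5p, of the same seed, had -2.44 ± 0.35. hsa-miR-93-5p, also of that seed, did not pass in shNeg cells (-0.10 ± 0.17), and fell with RELB knockdown in spheroids by 0.94 ± 0.18 (edgeR FDR 1.04e-04). hsa-miR-25-3p, of the seed of hsa-miR-92a-3p, had -0.40 ± 0.18 in shNeg cells (edgeR FDR 0.0531) and -0.44 ± 0.18 with RELB knockdown in spheroids (edgeR FDR 0.0629). In spheroid RELA knockdown no paralog arm was called, beside 15.1% of all miRNAs, and 5 passed an FDR of 0.05 in the edgeR test, beside 27.4%. With RELB knockdown 2 were called, 1 in each direction, beside 13.4%. Arms of 1 seed thus had unequal changes in the paralogs as well.

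The miRNAs outside the cluster whose pattern was most like its own were hsa-miR-500b-5p, hsa-miR-30b-5p and hsa-miR-93-3p. Over the 24 libraries, Pearson's r of their log2(CPM + 1) with the mean of the arms' z-scores was 0.97, 0.95 and 0.94, among 326 candidates with a mean of at least 10 CPM. These values describe libraries in 2 cultures that differ for many miRNAs, and they carry no test.

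The promoter of MIR17HG was searched for 2 motifs in the window of 300 bases that runs from 250 before to 50 after the start given by RefSeq on GRCh38.p14. The E-box CACGTG, the site of MYC, and the κB consensus, the site of NF-κB dimers, were sought on both strands, and neither was found. The E-box was in 7.26% and the κB consensus in 11.3% of 35116 promoter windows of that length. No match says only that these letters are not in this window.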

How the data were processed

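Small RNA was sequenced from 24 libraries of OV90 cells, 4 in each of 6 groups of culture and shRNA, assigned by title. The deposited table holds estimated counts of 2656 mature miRNAs, which the authors made from single-end reads trimmed with Cutadapt and quantified with miRDeep2 against miRBase on GRCh38. Although its title names CPM, the values are not scaled. 3.04% of the non-zero values were not whole (tolerance 1e-06) and all were rounded. Whether molecular identifiers of the kit were collapsed is not given in the sources used here, so intervals and floors cover counting error only. 0 columns matched no sample, and no column of the authors' own comparisons was used.

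edgeR 4.0.16 (R 4.3.3) was fitted by quasi-likelihood to 905 miRNAs, those reaching 1 CPM in 4 or more libraries, with TMM scaling and the 6 groups as the terms. Adjusted p-values (FDR, Benjamini-Hochberg) cover all 905. A call needed an FDR below 0.01 and a change of over 2-fold, and an FDR below 0.05 was counted as well. The edgeR, limma and DESeq2 fits were tested on data simulated for spheroid RELA knockdown. Ratios of arms, with 0.5 counts added to each, were compared by 2-sided exact permutation tests, and correlations by 100000 shuffles within groups (Python 3.11.15, SciPy 1.17.1).

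Alternatives were median-ratio size factors, library totals, no filter, DESeq2 1.42.0, limma 3.58.1 on log2(CPM + 1), a block for the replicate number, a fit of the compared groups alone, and each library left out. Leaving out spheroid shNeg replicate 1 in comparisons without it was added after the data were seen. Replicate numbers did not pair the libraries. The members and lists were chosen with earlier results of these data known. The arms of the miR-106a-363 and miR-106b-25 clusters were counted as paralogs, with values for 4 of them, and the 3 miRNAs most like the cluster were named by correlation.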

Additional observations from a re-analysis of the deposited data

Results flagged for a closer look

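In 7 cases 1 library lay far from the other 3 of its group, measured by its gap to the nearest library over the range of the group. About 1 in 20 groups is picked out this way by chance. Spheroid shRELA replicate 1 accounts for 4 of the 7, at 343 CPM for hsa-miR-18a-3p, 97.0 CPM for hsa-miR-19b-3p, 198 CPM for hsa-miR-92a-1-5p and 56687 CPM for hsa-miR-92a-3p, above the rest of its group each time. Adherent shNeg replicate 2 was at 25.1 CPM for hsa-miR-19a-3p, above its group. Adherent shRELB replicate 2 was at 4.44 CPM for hsa-miR-20a-3p, below its group. Adherent shRELB replicate 4 was at 139 CPM for hsa-miR-19b-3p, below its group.

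For 2 arms the response to a knockdown differed between the cultures by the edgeR test of the difference itself at an FDR below 0.05. The log2 fold change of hsa-miR-17-5p was higher in spheroids by 1.45 for RELA and by 1.72 for RELB knockdown, and that of hsa-miR-92a-3p differed by -0.70 for RELB knockdown.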

How the results depend on the processing

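Counts below are of the 10 arms, and values are log2 fold changes or log2 differences. The cause of each change was not tested. Other scalings moved the median of all miRNAs by -0.41 to 0.43 (library totals) and -0.19 to 0.12 (median-ratio size factors). With median-ratio size factors, 3 arms in place of 6 passed an FDR of 0.05 for spheroid RELA knockdown, and for the difference of the RELA response between cultures 0 were called and 2 passed. hsa-miR-92a-3p turned to 0.093 in shNeg culture, hsa-miR-18a-3p to -0.050 in shRELA culture, and hsa-miR-20a-5p to -0.067 in the RELA difference between cultures. With library totals, 2 arms passed for spheroid RELA knockdown, 2 were called for spheroid RELB knockdown, 0 were called and 0 passed for shRELA against shRELB in adherent cells, and 0 were called and 2 passed for the RELA difference between cultures. hsa-miR-18a-3p turned to 0.21 and hsa-miR-92a-3p to 0.41 in shNeg culture, and hsa-miR-20a-5p to -0.14 in the RELA difference. With no filter, 1 arm passed for adherent RELB knockdown, 2 were called for spheroid RELA knockdown, 0 were called for shRELA against shRELB in adherent cells, 1 passed for the same in spheroids, 1 passed for the RELB difference between cultures, and hsa-miR-18a-3p turned to -0.11 in shRELA culture. With DESeq2, 2 arms passed for adherent RELB knockdown, 3 were called and 7 passed for shRELA against shRELB in adherent cells, 2 passed in spheroids, and 0 were called and 3 passed for the RELA difference. hsa-miR-92a-3p was at 0.093 in shNeg culture, hsa-miR-18a-3p at -0.050 in shRELA culture and hsa-miR-20a-5p at -0.067 in the RELA difference. With limma, 2 arms were called for spheroid RELA knockdown, 0 were called and 1 passed for shRELA against shRELB in adherent cells, 0 were called and 2 passed for the RELA difference, and hsa-miR-20a-5p turned to 0.024 in spheroid RELB knockdown. With only the compared groups fitted, 1 arm passed for adherent RELA, 6 for adherent RELB and 1 for spheroid RELA knockdown, 0 were called for spheroid RELB knockdown, 8 passed for shRELA against shRELB in adherent cells and 3 in spheroids. hsa-miR-18a-3p was at 0.034 and hsa-miR-92a-3p at 0.24 in shNeg culture.

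With the replicate number as a block, 0 arms were called for shRELA against shRELB in adherent cells and 0 for the RELA difference between cultures, and for spheroid RELA knockdown hsa-miR-17-3p (0.69) and hsa-miR-18a-3p (0.73) no longer passed an FDR of 0.05. Same-numbered libraries deviated with correlations of -0.24 to 0.14, in 0 of 9 comparisons was every one over 0.1, and 0 to 3 of 8 libraries were closest to their own number, so the numbers do not pair the libraries.

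With 1 library left out, the called arms ranged from 0 to 2 for the RELA difference between cultures and from 0 to 4 for shRELA against shRELB in adherent cells. Those that passed an FDR of 0.05 ranged from 0 to 1 (adherent RELA), 0 to 3 (adherent RELB), 2 to 5 (spheroid RELA), 0 to 8 (shRELA against shRELB, adherent), 0 to 5 (the same, spheroid), 1 to 2 (RELA difference) and 1 to 2 (RELB difference). The values of hsa-miR-18a-3p ranged from -0.62 to 0.036 in shNeg and from -0.23 to 0.16 in shRELA culture, those of hsa-miR-92a-3p from -0.28 to 0.0097 in shNeg culture, and those of hsa-miR-20a-5p from -0.17 to 0.47 in the RELA difference.

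Of the 9 correlations with hsa-miR-17-5p, 3 passed with library totals, 2 in the 12 adherent and 0 in the 12 spheroid libraries. r of hsa-miR-92a-1-5p turned to 0.15 with library totals and 0.32 in spheroid libraries, that of hsa-miR-18a-3p was -0.48 in adherent and that of hsa-miR-20a-3p -0.091 in spheroid libraries. Spheroid libraries are the shallower, and arms near their floor of up to 2.29 CPM are limited by depth.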
